A study of Mus musculus with 18 samples.

Results

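Whether the transcriptional response to a Brca2 and Trp53 genotype depended on mammary lineage was examined by setting the genotype effect in mature luminal (ML) cells against the genotype effect in basal cells. The comparison used 12 of the 18 bulk RNA-seq libraries of the series. The 6 luminal progenitor (LP) libraries entered through the shared estimates of spread and of each mouse, the count filter and the scaling. The groups were ML knockout (KO), ML wildtype (WT), basal KO and basal WT, with 3 female mice of 14 weeks per genotype, and each mouse gave 1 ML and 1 basal library. KO mice carried the MMTV-cre transgene, whose promoter drives recombination in mammary epithelial cells. The series' design text gives their genotype as Brca2(delta/delta) and Trp53(delta/+). The genotype label calls them Brca2 knockout while their titles say knockdown. The strain label names MMTVcre, Brca2(fl/fl) and Trp53(fl/+) for every library, WT included, so the alleles carried by the WT mice are not known from it. For each gene, the KO against WT difference in basal cells was subtracted from that in ML cells, on a log2 scale and within mice. A positive value (ML minus basal) therefore means a larger increase, or a smaller decrease, in ML KO cells than in basal KO cells.

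The mammary duct is a bilayer. Basal (myoepithelial) cells form the outer layer, contract to eject milk, express keratins 5 and 14 and sit on the basement membrane through hemidesmosomes. Mature luminal cells line the lumen, carry the estrogen, progesterone and prolactin receptors, and send paracrine signals such as amphiregulin and RANKL to their neighbours. Brca2 acts in homologous recombination, which repairs broken DNA from an intact copy, and p53, the product of Trp53, halts or removes cells with damaged DNA.

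Total counts ran from 5.97 M to 30.55 M in ML libraries and from 12.08 M to 39.19 M in basal libraries. The sorted populations matched their labels in WT mice: the summed level of 20 mature luminal markers was 10230 to 17430 library-size-scaled read counts (CPM) in ML WT and 701 to 1316 CPM in basal WT, and that of 22 basal markers was 1583 to 2052 CPM in ML WT and 35420 to 38820 CPM in basal WT. In KO mice the 2 sets also separated the populations, with mature luminal sums of 3648 to 9173 CPM in ML KO against 854 to 1138 CPM in basal KO. ML KO replicate 1 stood apart from the other ML KO libraries. Its mature luminal sum of 3648 CPM lay below the 6950 and 9173 CPM of the other ML KO libraries, and its sum over 19 LP markers, 5101 CPM, lay above their 2062 and 2217 CPM. The agouti gene, a, which acts in coat colour, had 265, 127 and 153 CPM in ML KO libraries, against 0, 0.25 and 0.0856 CPM in ML WT libraries. It had 477, 551 and 558 CPM in basal KO, against 0.104, 0 and 0 CPM in basal WT. Genotype and strain background cannot be told apart here.

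Of the targeted genes, Trp53 had 14.9, 13.6 and 17 CPM in ML KO libraries, against 47.2, 49.2 and 39.6 CPM in ML WT libraries. In basal cells it had 35.8, 18.6 and 13.7 CPM in KO, against 57, 78.9 and 88.7 CPM in WT. KO and WT did not overlap in either population, and the log2 difference of KO over WT was -1.58 in ML (edgeR adjusted p = 0.00295) and -1.72 in basal cells (edgeR adjusted p = 0.00592). The ML minus basal difference was 0.19 ± 0.41 (SE; edgeR adjusted p = 0.855), and its sign turned when basal KO, ML KO or ML WT replicate 3 was left out (-0.12, -0.05 and -0.11). Brca2 had 9.82, 15.8 and 8.03 CPM in ML KO against 4.75, 7.92 and 15.7 CPM in ML WT. It had 4.97, 10.6 and 7.09 CPM in basal KO against 4.63, 15 and 19.4 CPM in basal WT. The groups overlapped in both populations, and counts summed over the whole gene do not resolve its deleted part, so Brca2 does not check the labels here. In the LP libraries of the same mice Trp53 averaged 8.002 CPM in KO and 96.7 CPM in WT. How many Trp53 copies were deleted in each population was not tested.

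The KO effect differed between ML and basal cells for 1441 of 16466 genes tested (8.75%; edgeR quasi-likelihood test with the mouse as block, Benjamini-Hochberg adjusted p under 0.05). It was higher in ML for 1069 genes (6.49%) and lower in ML for 372 genes (2.26%), and the median over all genes tested was 0.05. The list counts below are to be read beside these shares. Among the 1069 genes, 966 were higher in ML KO than in ML WT and were not called in basal cells, 26 were higher in KO in both populations, 2 were lower in basal KO alone, and 75 passed in neither. Among the 372 genes, 105 were lower in ML KO alone, 84 were higher in basal KO alone, 7 were both, 18 were higher in KO in both populations, and 158 passed in neither. A call in 1 population alone is not itself a difference, and every difference named below is that of ML minus basal. Taken alone, the ML comparison called 2059 genes higher (12.5%) and 432 lower (2.62%) in KO, and the basal comparison 407 higher (2.47%) and 11 lower (0.0668%). For 1050 of the 1069 and 361 of the 372 genes, the within-mouse differences of the 3 KO mice did not overlap those of the 3 WT mice. Over all genes tested, such separation was found in 17.3% upward and 12.2% downward.

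The count of genes lower in ML was the less stable of the 2. Without the mouse block it was 178, without basal WT replicate 2 it was 228 and without ML WT replicate 2 it was 245. Among single-population counts, the ML lower count was 92 without ML KO replicate 1, 244 without ML KO replicate 2, and 242, 165 and 261 without ML WT replicates 1, 2 and 3. The basal higher count was 265 without basal KO replicate 3 and 242, 219 and 251 without basal WT replicates 1, 2 and 3. The basal lower count was 3 and 7 without basal KO replicates 2 and 3 and 3 and 2 without basal WT replicates 2 and 3.

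**Figure D1:**
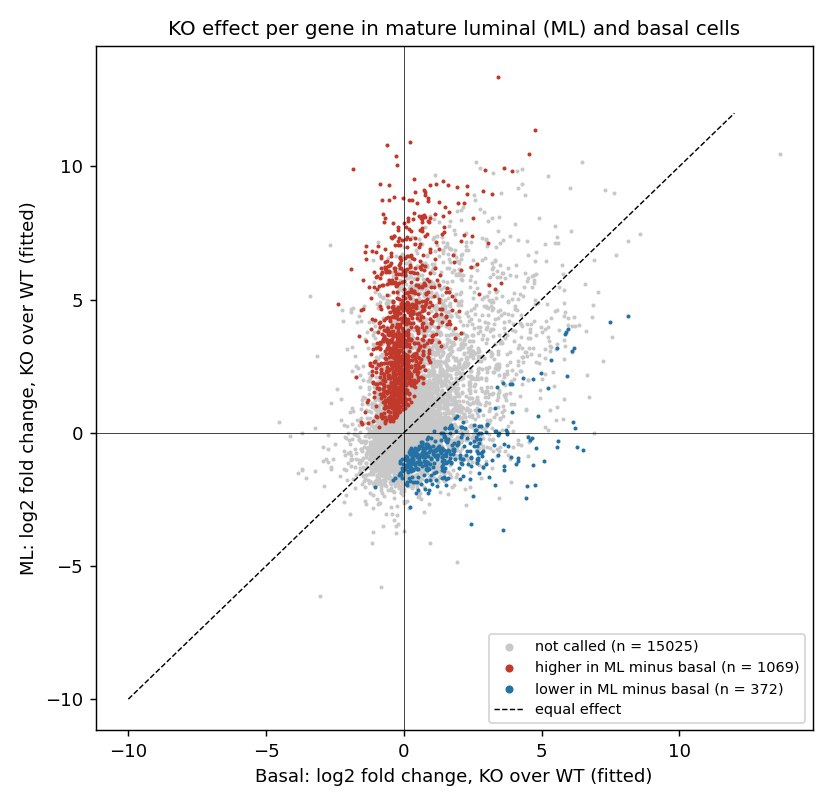
Each point is 1 of 16466 genes, with its fitted log2 fold change of KO over WT in basal cells on the horizontal axis and in ML cells on the vertical axis. The 1069 genes with a higher KO effect in ML (red) lie mostly along the vertical axis near a basal change of 0, and the 372 with a lower effect (blue) lie below the dashed line of equal effect; fitted values of genes with 0 counts in a group are not bounds.

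The direction of these differences followed the lineage contrast of the WT cells. Of the 1069 genes higher in ML, 1054 (98.6%) had a lower mean CPM in ML WT than in basal WT, against 52% of all genes tested. Of the 372 genes lower in ML, 365 (98.1%) had a higher mean in ML WT than in basal WT. The same WT libraries enter both the call and this description, so these shares are not independent of the calls. In KO mice the populations remained ordered the same way for most of them: 903 of the 1069 (84.5%) were still lower in ML KO than in basal KO, and 318 of the 372 (85.5%) were still higher. For 151 of the 1069 (14.1%), the ML KO mean lay above the basal KO mean although the ML WT mean lay below the basal WT mean.

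Basal identity genes were higher in ML KO than in ML WT cells. Of 22 basal markers tested, 19 had a higher KO effect in ML than in basal cells and 0 a lower one, with a median of 2.80 against 0.05 over all genes. Within ML cells 18 were higher and 1, Dst, was lower in KO, and within basal cells 0 passed in either direction. Krt5, which encodes the keratin that pairs with keratin 14 in the basal cytoskeleton, had 184, 147 and 141 CPM in ML KO libraries, against 3.48, 2.5 and 1.92 CPM in ML WT libraries. It had 1776, 1457 and 1633 CPM in basal KO, against 1840, 1890 and 1891 CPM in basal WT. The ML groups lay far apart while basal KO lay just below basal WT, and the ML minus basal difference was 6.19 ± 0.48 (SE; edgeR adjusted p = 1.56e-06). Krt14 had 233, 309 and 245 CPM in ML KO, against 6.97, 2.34 and 2.22 CPM in ML WT. Basal libraries had 5174, 3284 and 2411 CPM in KO, against 8643, 5323 and 5234 CPM in WT, and its difference was 7.10 ± 0.65 (edgeR adjusted p = 5.35e-06). Krt5 averaged 3.77 CPM in LP KO and 2.6 CPM in LP WT, so the LP libraries of the same mice did not show the ML KO level. Krt17, a further basal keratin, averaged 254 CPM in ML KO against 3.36 CPM in ML WT. Trp63, which encodes the transcription factor p63 that maintains basal epithelium, averaged 30.4 CPM in ML KO against 1.02 CPM in ML WT, and 245 CPM in basal KO against 247 CPM in basal WT. Its difference was 4.88 (edgeR adjusted p = 3.71e-05). Krt17 and Trp63 were named after their values were seen. The 3 basal markers that did not pass were Cnn1, Itgb4 and Dst.

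**Figure D2:**
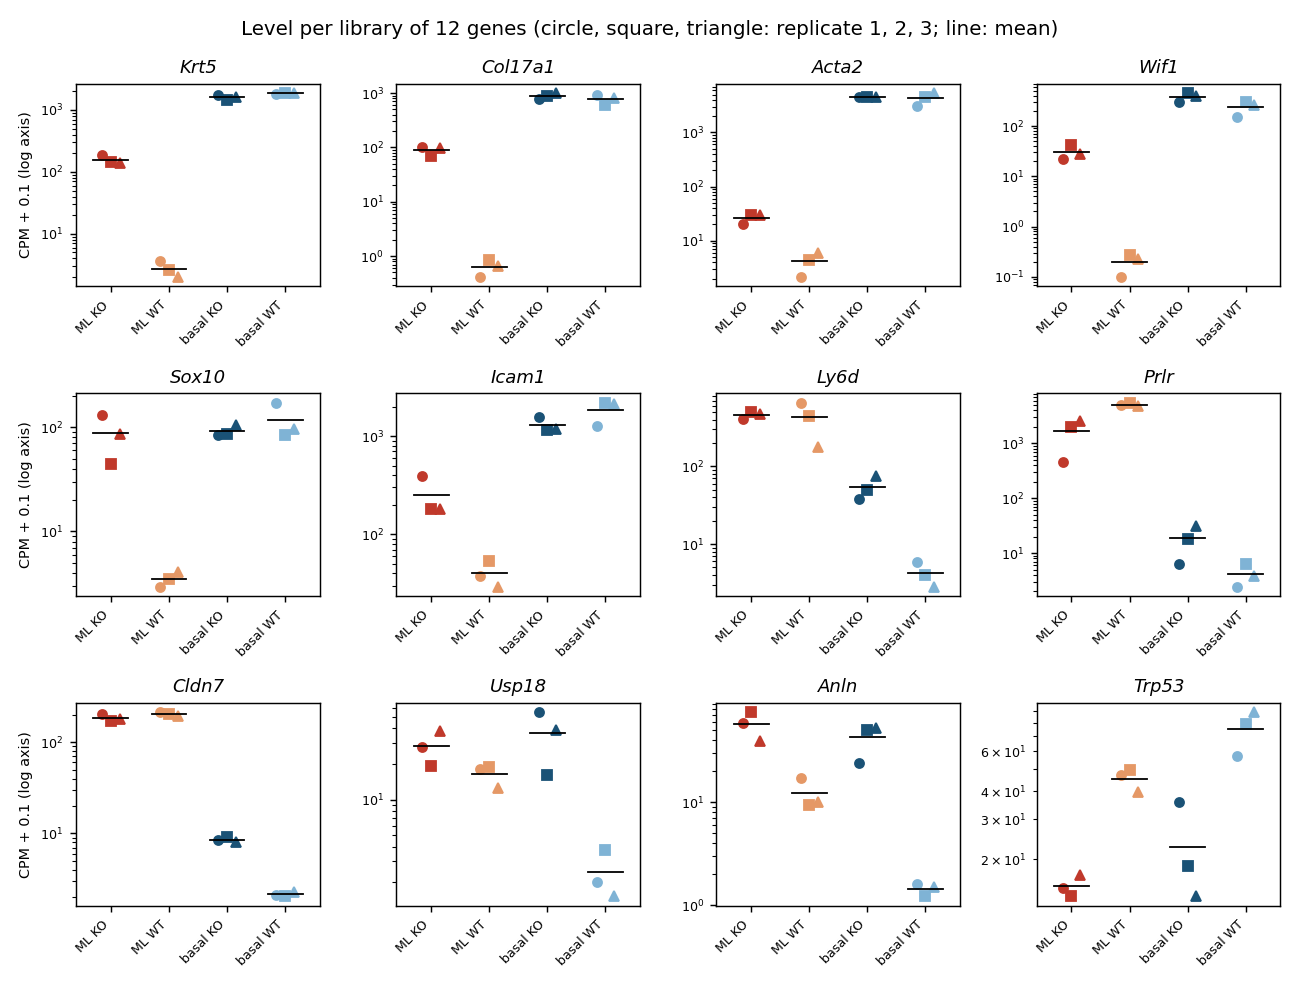
CPM plus 0.1 (log axis) of 12 genes in the 3 libraries of each group, from left to right ML KO, ML WT, basal KO and basal WT, with the group mean as a line. Krt5, Col17a1 and Wif1 are high in ML KO and near 0 in ML WT. Their basal groups lie closer together than their ML groups, with Wif1 higher in basal KO than in basal WT. Cldn7 and Ly6d are alike in the ML groups and higher in basal KO than in basal WT, and Trp53 is lower in KO in both populations.

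Levels in ML KO cells relative to basal KO cells varied widely between genes. Over the 19 called basal markers, the ML KO mean was 0.42% to 31.6% of the basal KO mean (median 5.94%), and the ML WT mean was a median of 0.34% of the basal WT mean. Acta2, smooth muscle actin, was at 0.58% and Myh11, smooth muscle myosin, at 0.42%. Krt14 was at 7.24%, Krt5 at 9.7% and Col17a1 at 10.03%. Sox10, a transcription factor of stem-like and progenitor cells of this epithelium, was at 95.7%. Over the 686 of the 1069 genes with a mean of at least 20 CPM in basal KO, the KO median was 23.2% (quartiles 8.61% and 49.3%, highest 644%). The WT median was 2.38%. All these genes were chosen for a higher KO effect in ML, so a larger share in KO than in WT was set by the choice. In bulk libraries a few cells with much RNA of a gene and many cells with little cannot be told apart. Basal cells carried over in the ML sort were not tested as a source. The summed level of all 22 basal markers was 2256 to 2650 CPM in ML KO and 1583 to 2052 CPM in ML WT. It was 30440 to 32940 CPM in basal KO and 35420 to 38820 CPM in basal WT, and no marker was at 0 counts in a group. The ML sums do not follow the single markers, of which 18 were higher and 1, Dst, lower in ML KO. Krt5 and Krt14 averaged 2.64 and 3.84 CPM in ML WT, a small part of its sum, against 157 and 262 CPM in ML KO.

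**Figure D3:**
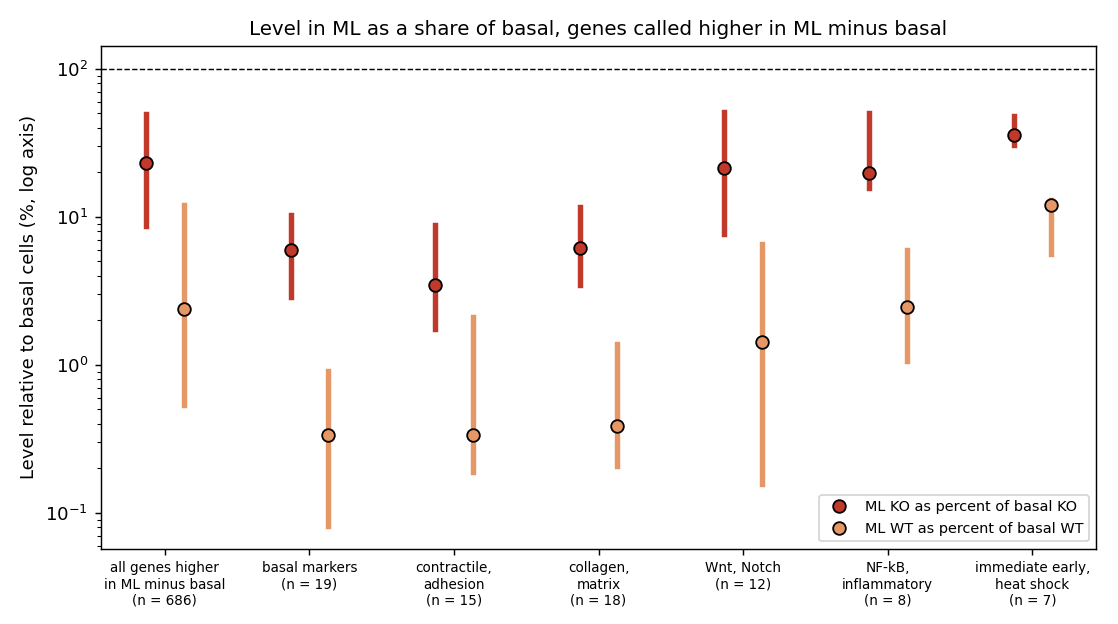
Mean CPM in ML as a percentage of the mean in basal cells (log axis), for genes called higher in ML minus basal with a mean of at least 20 CPM in basal KO, KO in red and WT in orange (dot, median over genes; bar, quartiles). The choice of genes called higher sets the KO median above the WT median, so its place in all 7 sets drawn is not a separate result. The contractile set has the lowest KO median, 3.46%.

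Collagen and matrix genes showed the same direction. Of 30 tested, 18 were higher in ML minus basal, 1 was lower and the median was 2.33. Col17a1, the transmembrane collagen of hemidesmosomes, had the lowest p of all genes tested. It had 104, 68.4 and 97.3 CPM in ML KO libraries, against 0.317, 0.751 and 0.556 CPM in ML WT libraries. Its basal levels were 792, 883 and 1011 CPM in KO, against 904, 608 and 800 CPM in WT. The basal groups overlapped and the ML groups did not, giving a difference of 6.95 ± 0.43 (edgeR adjusted p = 5.55e-07). Col14a1, a fibril-associated collagen, had 18.6, 23.1 and 25.4 CPM in ML KO against 0.158, 0.0834 and 0.214 CPM in ML WT (difference 7.04, edgeR adjusted p = 9.91e-07). Col12a1, of the same kind, had 659 reads in ML KO and 2 in ML WT, a ratio of 192 (95% exact counting interval 52.9 to 1590). Col9a3, a cartilage collagen chain, had 65.2, 74.9 and 89 CPM in ML KO against 1.43, 2 and 1.58 CPM in ML WT (difference 4.77, edgeR adjusted p = 1.37e-06). It was near its ML KO level in LP cells too, at means of 78.7 CPM in KO and 69.1 CPM in WT. LP KO means of Col17a1, Col14a1 and Col12a1 were 2.52, 2.72 and 8.85 CPM. The exception was Col8a1, a short-chain network collagen, named after its values were seen. It had 87.1, 159 and 435 CPM in ML KO against 1696, 864 and 944 CPM in ML WT, and 4.92, 24.6 and 11.3 CPM in basal KO against 3.38, 2.44 and 1.13 CPM in basal WT (difference -4.85 ± 0.53, edgeR adjusted p = 2.68e-05).

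Contractile and adhesion genes were higher in ML minus basal for 15 of 26 and lower for 0, with a median of 1.87. Mylk, the kinase that activates myosin light chain, had 20.9, 13.7 and 20 CPM in ML KO libraries, against 0, 0.25 and 0.77 CPM in ML WT libraries. In basal cells it had 786, 642 and 1051 CPM in KO, against 667, 957 and 1290 CPM in WT (difference 5.64 ± 0.52, edgeR adjusted p = 5.83e-06). The basal groups overlapped and the ML KO level was 2.21% of the basal KO level. Acta2, chosen after its values were seen, had 20.5, 29.2 and 30.1 CPM in ML KO against 2.06, 4.34 and 5.82 CPM in ML WT (difference 2.62, edgeR adjusted p = 0.0018). Myh11 had 12.1, 7.54 and 8.62 CPM in ML KO against 0.634, 2 and 1.67 CPM in ML WT (difference 2.98, edgeR adjusted p = 0.000205). The laminin-332 chains Lama3 and Lamb3, which anchor basal cells, also passed, at 3.32 and 2.26. In LP cells Lama3 averaged 18.8 CPM in KO and 143 CPM in WT, and Lamb3 181 and 121 CPM. Of 19 epithelial-mesenchymal transition regulators and cadherins, 6 were higher (Vim, Prrx1, Cdh3, Snai2, Cdh11 and Fn1) and 0 lower. That was 31.6%, against 6.49% of all genes tested, and the epithelial cadherin gene Cdh1 did not pass. Fibroblast markers were summed beside these: 549 to 995 CPM in ML KO, 511 to 648 CPM in ML WT, 2862 to 3353 CPM in basal KO and 2782 to 5170 CPM in basal WT. Of 15 fibroblast markers, 3 were higher in ML minus basal (Postn, Col6a2 and Col6a1), or 20% against 6.49%. Col1a1, Col3a1, Dcn and Pdgfra did not pass. The part of fibroblasts in these differences was not tested.

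Wnt and Notch pathway genes were higher in ML minus basal for 14 of 34 and lower for 1, Wnt7b, with a median of 1.54. In all 44.1% were called, against 8.75% of all genes tested, and within basal cells 0 passed. Wnt7b, named after its values were seen, had an adjusted p of 0.0495 in edgeR and missed the threshold in 18 of 19 other settings. Wif1, a secreted inhibitor that binds Wnt ligands, had 21.7, 41.3 and 27.6 CPM in ML KO libraries, against 0, 0.167 and 0.128 CPM in ML WT libraries. It had 306, 459 and 391 CPM in basal KO, against 150, 305 and 269 CPM in basal WT (difference 7.37 ± 0.53, edgeR adjusted p = 9.91e-07). Nkd2, an intracellular Wnt antagonist, reached basal levels: 58.5, 76.1 and 41.8 CPM in ML KO against 0, 0.167 and 0.556 CPM in ML WT, beside 39.8, 103 and 45.5 CPM in basal KO and 27.8, 42.5 and 33.6 CPM in basal WT (difference 6.97, edgeR adjusted p = 7.15e-06). Lgr5, a receptor for R-spondins that marks stem cells in several epithelia, had 10.7, 12.6 and 23.6 CPM in ML KO against 0, 0.25 and 0.299 CPM in ML WT (difference 6.62, edgeR adjusted p = 1.08e-05). Its LP means were 0.149 CPM in KO and 2.13 CPM in WT. Nkd2, by contrast, averaged 80.7 CPM in LP KO and 0.991 CPM in LP WT. Dll1, a Notch ligand of basal cells, had 16.6, 13.1 and 20.3 CPM in ML KO against 2.22, 0.417 and 0.428 CPM in ML WT, and 408 to 581 CPM in basal KO against 652 to 801 CPM in basal WT (difference 4.87, edgeR adjusted p = 1.45e-05).

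The ErbB family split by direction, with 2 of 14 members higher and 3 lower (35.7% called, against 8.75% of all genes tested). Without ML WT replicate 1 or without the mouse block, 1 was higher. Egfr, the receptor, had 57.6, 38.8 and 45.8 CPM in ML KO against 1.58, 3 and 1.03 CPM in ML WT, and 194 to 273 CPM in basal KO against 180 to 308 CPM in basal WT (difference 4.89 ± 0.49, edgeR adjusted p = 1.17e-05). Egfr averaged 84.3 CPM in LP KO and 144 CPM in LP WT. Nrg1, a ligand of ErbB3 and ErbB4, had 327 reads in ML KO and 1 in ML WT. The ratio was 190, with a 95% exact counting interval of 33.9 to 7540. Its edgeR adjusted p of 0.0126 was 0.0709 without ML WT replicate 1 and 0.0599 without the mouse block. The ligands Areg, Epgn and Btc, which bind the epidermal growth factor receptor, were lower in ML minus basal. Btc, named after its values were seen, rested on 49 reads in basal KO and 9 in basal WT. Its difference of -2.16 (edgeR adjusted p = 0.0163) had adjusted p-values of 0.0504 without basal KO replicate 2, 0.0675 without basal WT replicate 2 and 0.135 with limma voom, and it was -0.60 (adjusted p = 0.777) in thinned libraries. Areg had 755, 1285 and 838 CPM in ML KO against 1520, 1754 and 725 CPM in ML WT, which overlapped. Its levels in basal libraries were 73.5, 63.4 and 67.5 CPM in KO against 14.3, 4.05 and 2.54 CPM in WT, with no overlap (difference -4.01 ± 0.50, edgeR adjusted p = 7.35e-05). Epgn had 53.2, 66.8 and 60.3 CPM in basal KO against 12.8, 10.2 and 7.16 CPM in basal WT, and 66, 154 and 75.4 CPM in ML KO against 134, 95.7 and 48.3 CPM in ML WT (difference -2.51, edgeR adjusted p = 9.3e-05).

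Inflammatory genes of the NF-kB pathway were higher in ML minus basal for 9 of 22 (40.9%, against 6.49% of all genes tested) and lower for 0. Within basal cells 0 passed. Icam1, a leukocyte adhesion molecule, had 389, 182 and 179 CPM in ML KO against 37.5, 52.9 and 29.2 CPM in ML WT. In basal cells it had 1567, 1167 and 1179 CPM in KO against 1277, 2195 and 2128 CPM in WT (difference 3.05 ± 0.35, edgeR adjusted p = 3.65e-05). Cxcl1, a neutrophil chemokine, had 489, 187 and 91.4 CPM in ML KO against 37.7, 23.9 and 9.8 CPM in ML WT, and 206 to 500 CPM in basal KO against 160 to 450 CPM in basal WT. Its difference was 3.23 (edgeR adjusted p = 0.000127), with an adjusted p of 0.0525 without the mouse block. The chemokine gene Ccl2 and the adhesion gene Vcam1 passed too, at 5.71 and 5.90, and among ML libraries both were highest in KO replicate 1. Immune markers were also higher in ML KO: their sum over 8 tested markers was 10.8 to 60.2 CPM in ML KO, 4.75 to 6.42 CPM in ML WT, 37 to 184 CPM in basal KO and 31.5 to 85 CPM in basal WT. Of these 8, only Cd74 passed in ML minus basal, and Cd3g was at 0 counts in ML KO while 7 of the list's 15 markers were at 0 in ML WT. LP means in KO and WT were 891 and 1346 CPM for Cxcl1, and 400 and 364 CPM for Icam1. They were 33.3 and 0.673 CPM for Ccl2, and 21.1 and 15.6 CPM for Vcam1. ML KO replicate 1, with the highest LP marker sum of the ML libraries, was also the highest ML library for Icam1 and Cxcl1. The parts of immune cells and of LP cells were not tested.

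Among 20 senescence and cell cycle inhibitor genes and their partners, 5 were higher (Ccnd2, Igfbp3, Cdk6, Igfbp7 and Lmnb1) and 0 lower. That was 25%, against 6.49% of all genes tested. Ccnd2, a D-type cyclin, had 37.6, 37.8 and 46.9 CPM in ML KO against 0.317, 0.0834 and 0.257 CPM in ML WT. It rose in basal cells as well, with 261, 400 and 303 CPM in KO against 73.7, 113 and 162 CPM in WT, and the difference was 6.16 ± 0.56 (edgeR adjusted p = 5.17e-06). Cdk6, the kinase that D-type cyclins activate, had 19.2, 12.6 and 10 CPM in ML KO against 0.475, 0.5 and 0.0428 CPM in ML WT, above the 3.13 to 8.34 CPM of basal KO (difference 5.55, edgeR adjusted p = 0.000145). Its LP means were 18.4 CPM in KO and 30.1 CPM in WT. Igfbp3, which binds insulin-like growth factors, had 78.3, 50.7 and 65.6 CPM in ML KO against 0.475, 1.08 and 1.24 CPM in ML WT (difference 5.39, edgeR adjusted p = 1.43e-05). Immediate early and heat shock genes were higher for 7 of 27 (25.9%) and lower for 0, led by the growth factor response genes Egr3, Fosl1, Egr2 and Ier3. Glycolysis and hypoxia genes were higher for 4 of 24 (Egln3, Car9, Ndrg1 and Pfkp; 16.7%, against 6.49% of all genes tested) and lower for 0. Egln3, an oxygen-sensing prolyl hydroxylase, had 56.2, 20.1 and 15.9 CPM in ML KO against 1.27, 4.34 and 1.5 CPM in ML WT (difference 3.72, edgeR adjusted p = 2.36e-05). Its LP means were 78.1 CPM in KO and 76.3 CPM in WT. The glycolysis and hypoxia count was 2 without the mouse block, ML KO replicate 1, ML WT replicate 1 or basal KO replicate 3. Pfkp missed the threshold in 10 of 19 other settings and Ndrg1 in 5. With 1 library left out, 1 senescence list member was lower without basal WT replicate 1 and 1 glycolysis and hypoxia gene without basal WT replicate 3.

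Genes with the largest positive differences were near absent from ML WT. The 10 were Ankrd1, Serpina3i, Slc4a4, Adamts18, Mill1, Gfra1, Dsc3, Prrx1, Cpxm2 and Cntn2, and 9 of them had 0 reads in all 3 ML WT libraries. Folds for these are lower bounds against 3 reads over the ML WT group. Dsc3, a desmosomal cadherin of stratified epithelia, had 70, 65.7 and 59.1 CPM in ML KO, at least 889-fold higher than in ML WT. It also rose in basal cells, with 88.5, 145 and 172 CPM in KO against 9.87, 14.5 and 13.5 CPM in WT. Slc4a4, a sodium bicarbonate cotransporter, had 9.22, 8.36 and 7.12 CPM in ML KO, at least 112-fold above ML WT, and lay in one range with basal KO (6.54 to 8.39 CPM) and basal WT (8.37 to 9.98 CPM). Ankrd1, a nuclear cofactor induced by mechanical stress, had 11.4, 4.56 and 2.25 CPM in ML KO, at least 65.4-fold above ML WT, and 0.886 to 2.95 CPM in basal KO against 1.46 to 13.9 CPM in basal WT. LP means of Slc4a4 were 7.89 CPM in KO and 5.27 CPM in WT, and those of Ankrd1 were 17 CPM in KO and 1.45 CPM in WT. Prrx1, a mesenchymal homeobox factor, had 1.98, 3.15 and 3.24 CPM in ML KO, at least 41.9-fold above ML WT. Cntn2, a neural adhesion molecule, had 774 reads in ML KO and 1 in ML WT, a ratio of 451 (95% exact counting interval 80.6 to 17800), and its LP means were 0.0828 CPM in KO and 0.111 CPM in WT. Pla2g7, a secreted phospholipase among the 10 genes of lowest p, had 15.9, 11.9 and 25.5 CPM in ML KO against 0.158, 0.167 and 0.0428 CPM in ML WT (difference 6.47, edgeR adjusted p = 1.56e-06). Reads of Serpina3i, which has close copies in its gene cluster, are uncertain where counting could split them. The other genes of lowest p were Sema6a, Epb41l2 and Plce1, at 6.47, 4.68 and 5.26.

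Luminal progenitor markers were higher in ML minus basal for 7 of 19 and lower for 0 (median 1.42). The count of lower members was 2 without ML KO replicate 1, whose LP marker sum was the highest of the ML libraries, and 1 without basal KO replicate 3. Within ML cells 16 of the 19 were higher in KO, and within basal cells 4 were, Wfdc18, Kit, Ltf and Ehf. Sox10 had 132, 44.7 and 86.6 CPM in ML KO against 2.85, 3.42 and 4.02 CPM in ML WT. Basal groups had 84.5, 86.5 and 104 CPM in KO against 173, 83.5 and 96.7 CPM in WT (difference 4.85 ± 0.45, edgeR adjusted p = 6.45e-06). Sox10 averaged 250 CPM in LP KO and 161 CPM in LP WT. Slc5a8, a monocarboxylate transporter chosen after its values were seen, had 52.2, 44.3 and 35.9 CPM in ML KO against 3.17, 1.17 and 3.89 CPM in ML WT, above the 8.94 to 12.1 CPM of basal KO and below its LP KO mean of 137 CPM (difference 4.93, edgeR adjusted p = 4.14e-06). Kit and Elf5 did not pass as different between the populations, though Elf5 passed without ML KO replicate 2 (adjusted p = 0.04) and with no filter on low counts (adjusted p = 0.0417). Kit, the receptor tyrosine kinase that marks luminal progenitors, chosen after its values were seen, had 257, 127 and 167 CPM in ML KO against 11.2, 10.8 and 13.3 CPM in ML WT. It had 5.78, 17.5 and 17.4 CPM in basal KO against 1.71, 1.76 and 3.01 CPM in basal WT (difference 1.31 ± 0.55, edgeR adjusted p = 0.175). Elf5, the alveolar transcription factor, had 182, 50.2 and 105 CPM in ML KO against 6.18, 9.84 and 11.8 CPM in ML WT, and 3.35, 8.42 and 13.3 CPM in basal KO against 1.2, 2.66 and 2.92 CPM in basal WT (difference 1.70 ± 0.65, edgeR adjusted p = 0.131). Summed LP markers separated by genotype in ML cells, at 2062 to 5101 CPM in ML KO and 671 to 959 CPM in ML WT, and overlapped in basal cells, at 1775 to 2051 CPM in basal KO and 1065 to 2317 CPM in basal WT, beside 11010 to 15360 CPM in LP KO. The part of LP cells in the ML and basal sorts was not tested.

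Mature luminal markers moved the other way. Of 20 tested, 12 were lower in ML minus basal and 0 higher, with a median of -2.43. Within ML cells 6 fell in KO (Cited1, Foxa1, Spdef, Wnt4, Esr1 and Gata3), and within basal cells 3 rose (Ly6d, Areg and Prom1). Prlr, the prolactin receptor, had 462, 2029 and 2524 CPM in ML KO against 5094, 5557 and 4779 CPM in ML WT. In basal cells it had 6.27, 17.9 and 30.9 CPM in KO against 2.34, 6.17 and 3.67 CPM in WT. ML KO replicate 1 was the lowest ML library, neither single-population comparison passed for Prlr, and the difference was -3.93 ± 0.54 (edgeR adjusted p = 0.000166). Cited1, a transcriptional coactivator for the estrogen receptor, had 114, 194 and 277 CPM in ML KO against 848, 588 and 574 CPM in ML WT, and 0.283 to 4.87 CPM in every basal library (difference -2.81 ± 0.42, edgeR adjusted p = 0.000414). Foxa1, the pioneer factor for the estrogen receptor, chosen after its values were seen, had 59.8, 199 and 193 CPM in ML KO against 290, 359 and 417 CPM in ML WT, and 5.24 to 7.93 CPM in basal KO against 2.17 to 3.34 CPM in basal WT (difference -2.73, edgeR adjusted p = 0.00126). Ly6d, a surface protein of luminal cells, was alike in the ML groups, at 410, 501 and 467 CPM in ML KO and 659, 444 and 177 CPM in ML WT. For basal cells the values were 37.7, 49.7 and 76 CPM in KO against 5.77, 3.87 and 2.73 CPM in WT (difference -3.48 ± 0.34, edgeR adjusted p = 1.04e-05). The basal KO mean was 11.9% of the ML KO mean for Ly6d, 7.1% for Areg and 1.1% for Prlr. The part of luminal cells in the basal sort was not tested. The receptor genes Esr1 and Pgr did not pass, at -1.53 (edgeR adjusted p = 0.0913) and -0.32 (edgeR adjusted p = 0.833).

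Of 13 estrogen and progesterone responsive genes, 5 were lower in ML minus basal (Areg, Prlr, Tnfsf11, Calca and Stc2) and 1, Igf1r, was higher. The lower count was 3 without the mouse block, and the higher count was 2 without ML WT replicate 1. Tnfsf11, which encodes RANKL, the paracrine signal of progesterone, had the most negative difference of all genes by the naming rule, yet its libraries were scattered. It had 20.6, 1.08 and 0.791 CPM in ML KO against 2.85, 221 and 8.43 CPM in ML WT, so that the groups overlapped and ML WT replicate 2 held most of its reads. Its difference of -7.72 ± 1.59 (edgeR adjusted p = 0.00516) was -4.52 with an adjusted p of 0.245 without basal WT replicate 2.

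Luminal junction and keratin genes were lower in ML minus basal for 6 of 14 and higher for 1, Cldn1. Within basal cells 5 rose (Cldn7, Ocln, Krt7, Cldn3 and Cldn1), and within ML cells 0 fell. For these 5 the basal KO mean was 4.58%, 10.2%, 2.67%, 5.32% and 69% of the ML KO mean, in that order. Their LP KO means were 294, 124, 396, 652 and 419 CPM. Luminal cells of either kind carried over in the basal sort were not tested as a source. Cldn7, a tight junction claudin, had 205, 170 and 180 CPM in ML KO against 212, 206 and 195 CPM in ML WT. In basal cells it had 8.32, 9.04 and 8.05 CPM in KO against 2.03, 1.94 and 2.17 CPM in WT, tight groups that lay apart (difference -2.22 ± 0.31, edgeR adjusted p = 0.000184). Cldn1, chosen after its values were seen, had 229, 96.4 and 133 CPM in ML KO against 5.38, 3.5 and 1.2 CPM in ML WT, and rose in basal cells too, to 101, 105 and 110 CPM in KO against 16.8, 5.49 and 4.61 CPM in WT. Its difference of 1.83 (edgeR adjusted p = 0.0167) had adjusted p-values of 0.0567 without ML KO replicate 1, 0.0703 and 0.0518 without ML WT replicates 1 and 3, and 0.0572 without basal KO replicate 1. Cldn3 missed the threshold without basal KO replicate 2 (adjusted p = 0.0519). Krt8 and Krt18, the keratins of all luminal cells, did not pass, at -0.13 (edgeR adjusted p = 0.857) and -0.81 (edgeR adjusted p = 0.168).

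**Figure D4:**
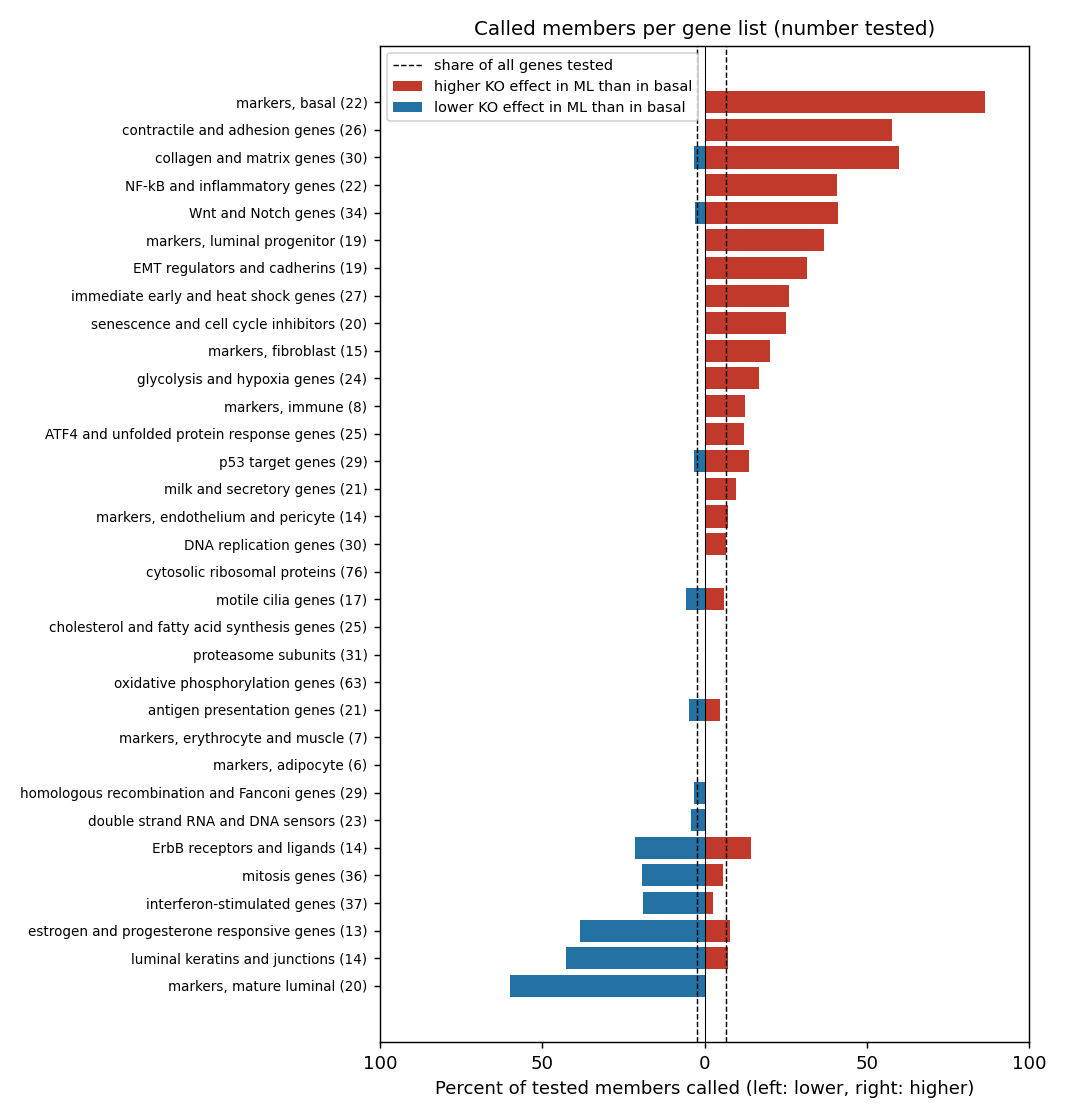
Percentage of tested members of each of the 33 gene lists called higher (right, red) or lower (left, blue) in ML minus basal, with the number tested in brackets and the shares of all genes tested, 6.49% and 2.26%, as dashed lines. Basal markers, contractile and matrix genes extend to the right and mature luminal markers to the left, and 6 lists have no bar on either side.

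Of 37 interferon-stimulated genes tested, 20 were higher in KO in both populations, and a subset had a lower KO effect in ML cells. These genes are switched on by interferon signalling, in many cases through the interferon-stimulated response element in their promoters. In all, 22 were higher in ML KO and 31 in basal KO, with medians of 1.93 and 2.70. In ML minus basal 7 were lower (Iigp1, Usp18, Ifih1, Trim30a, Oas1a, Oas2 and Stat2) and 1, Ifit3, was higher, with a median of -0.80. In all 21.6% were called, against 8.75% of all genes tested. The count of 7 was 4 without the mouse block. To show the element, the 250 bases before the annotated start are printed for the called members whose RefSeq window (GRCm38.p6) ends where the gene begins, on the gene's strand, with matches to GAAANNGAAA on either strand in capitals. Isg15, a ubiquitin-like modifier that rose in both populations (2.77 in ML and 3.28 in basal; ML minus basal -0.52, edgeR adjusted p = 0.545), is shown beside them.
Ifih1, chr2:62646256-62646505, minus strand: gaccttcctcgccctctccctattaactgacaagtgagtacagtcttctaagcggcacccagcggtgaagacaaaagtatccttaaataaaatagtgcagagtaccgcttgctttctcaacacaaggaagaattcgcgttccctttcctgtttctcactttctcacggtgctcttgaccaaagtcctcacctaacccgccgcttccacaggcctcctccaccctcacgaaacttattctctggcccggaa
Trim30a, chr7:104465194-104465443, minus strand: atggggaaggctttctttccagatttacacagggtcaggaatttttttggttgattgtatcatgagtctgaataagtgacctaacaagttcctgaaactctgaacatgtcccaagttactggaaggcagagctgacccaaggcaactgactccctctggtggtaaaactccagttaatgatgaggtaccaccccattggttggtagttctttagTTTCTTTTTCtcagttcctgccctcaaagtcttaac
Stat2, chr10:128270248-128270497, plus strand: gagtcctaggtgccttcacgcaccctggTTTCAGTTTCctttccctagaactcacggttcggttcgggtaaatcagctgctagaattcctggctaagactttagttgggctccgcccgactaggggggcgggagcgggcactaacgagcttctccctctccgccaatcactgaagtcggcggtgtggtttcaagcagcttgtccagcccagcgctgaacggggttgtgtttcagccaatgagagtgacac
Isg15, chr4:156200819-156201068, minus strand: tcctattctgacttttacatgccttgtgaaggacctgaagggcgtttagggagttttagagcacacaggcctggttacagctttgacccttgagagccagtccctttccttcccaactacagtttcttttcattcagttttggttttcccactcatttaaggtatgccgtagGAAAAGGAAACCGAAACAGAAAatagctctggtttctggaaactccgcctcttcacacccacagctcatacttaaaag
The window of Isg15 held 3 overlapping matches, those of Trim30a and Stat2 1 each, and that of Ifih1 0. Of the 37 genes, 27 had a promoter in the table, and 16 of these (59.3%) held a match, against 325 of 12237 tested genes (2.66%). Among the 4 lower members with a promoter 3 held a match, and among the 22 not called 12 did.

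Usp18, the protease that removes ISG15 and damps interferon signalling, had 27.9, 19.1 and 37.9 CPM in ML KO libraries, against 17.9, 18.9 and 12.3 CPM in ML WT libraries. Basal levels were 54.4, 15.9 and 39 CPM in KO, against 1.92, 3.66 and 1.41 CPM in WT. The KO levels of the populations overlapped while ML WT lay above basal WT (difference -3.12 ± 0.41, edgeR adjusted p = 0.000112). Ifih1, the double-stranded RNA sensor MDA5, had 63.6, 52 and 67.9 CPM in ML KO against 55.1, 63.6 and 43.8 CPM in ML WT, and 108, 60.2 and 83.9 CPM in basal KO against 10.1, 24 and 20.2 CPM in basal WT (difference -2.08, edgeR adjusted p = 0.000758). Iigp1, an immunity-related GTPase, had 170, 159 and 328 CPM in ML KO against 163, 264 and 251 CPM in ML WT, and 582, 137 and 355 CPM in basal KO against 14.5, 47.7 and 18 CPM in basal WT (difference -3.79, edgeR adjusted p = 9.12e-05). Trim30a had 20.7, 23.4 and 29.1 CPM in ML KO against 14.7, 31.9 and 12.7 CPM in ML WT, and 5.47 to 8.38 CPM in basal KO against 0.624 to 1.22 CPM in basal WT (difference -2.67, edgeR adjusted p = 0.0017). For these 4 genes the ML groups overlapped or lay close, and basal KO lay above basal WT. Oas1a, which makes the activator of RNase L, was chosen after its values were seen and rose in both populations, with 12.9 to 28.7 CPM in ML KO against 5.18 to 8.01 CPM in ML WT and 16.1 to 48.5 CPM in basal KO against 1.88 to 5.31 CPM in basal WT. Its difference was -1.77 (edgeR adjusted p = 0.0144), with adjusted p-values of 0.0501 without ML KO replicate 1, 0.0555 without basal KO replicate 1 and 0.166 without the mouse block. Ifit3, chosen after its values were seen, had 502 reads in ML KO and 0 in ML WT, at least 97.4-fold higher. It rose in basal cells too, with 64, 15.7 and 32.3 CPM in KO against 0.728, 2.26 and 1.79 CPM in WT. Its mean was 37.3 CPM in basal KO and 8.93 CPM in ML KO. Its reads can be split with its near copy Ifit3b, whose difference was 0.55 (edgeR adjusted p = 0.762). The edgeR adjusted p of Ifit3, 0.0157, was 0.11 without ML WT replicate 3 and 0.168 without the mouse block. Ifit3 also missed the threshold with limma voom and in thinned libraries. Of 21 antigen presentation genes, Cd74 was higher and B2m lower (9.52% called, near the 8.75% of all genes tested). The lower count was 0 without the mouse block or without basal KO replicate 1, ML WT replicate 2 or ML KO replicate 3, and 4 without ML WT replicate 3, and the higher count was 0 without the block and 2 without basal KO replicate 2. Of 23 double-stranded RNA and DNA sensors Ifih1 was lower (4.35%, against 2.26% of all genes tested). The count was 2 without basal WT replicate 2 or 3 and 3 without ML WT replicate 3.

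**Figure D5:**
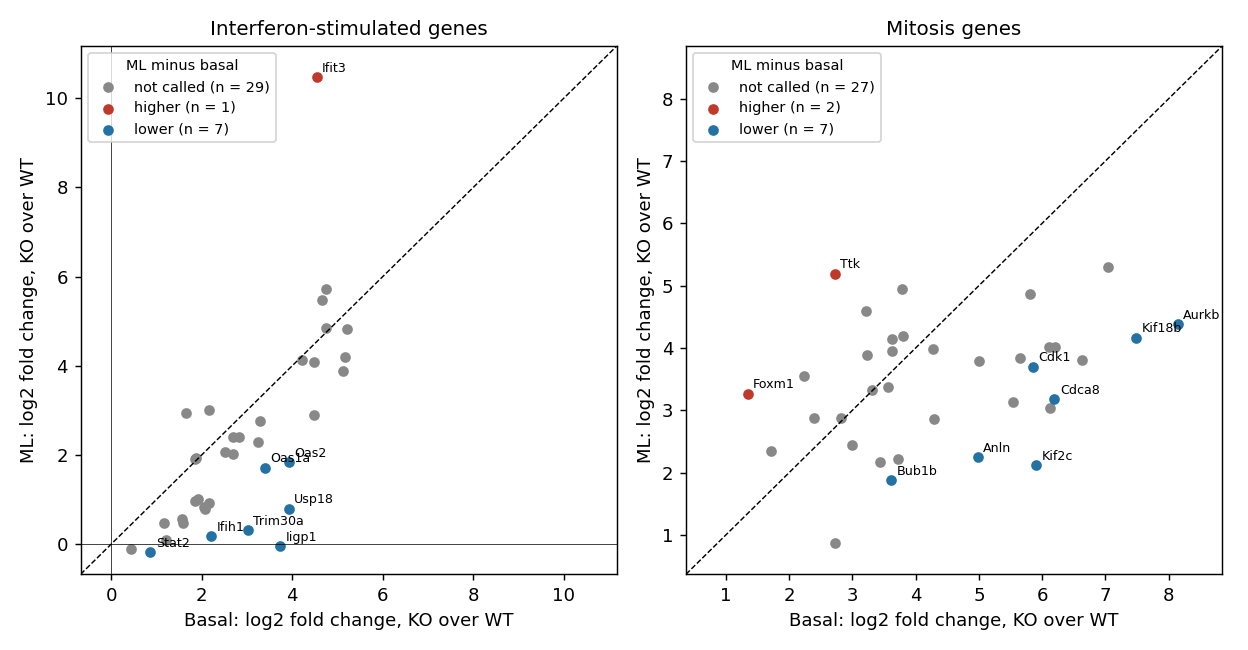
Fitted log2 fold change of KO over WT in basal cells (horizontal) and ML cells (vertical) for 37 interferon-stimulated and 36 mitosis genes, coloured by the test of ML minus basal and named where it passed, with the line of equal effect dashed. Nearly all points lie above 0 on both axes, and the 7 lower members of each list lie below the line; the value of Ifit3 is not a bound, since it had 0 reads in ML WT.

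Mitosis genes were higher in KO in both populations. Of 36 tested, 35 were higher in ML KO and 34 in basal KO, with medians of 3.63 and 3.79. Of all genes tested, 12.5% were higher in ML KO and 2.47% in basal KO. In ML minus basal 7 were lower (Anln, Kif2c, Cdk1, Bub1b, Cdca8, Kif18b and Aurkb) and 2 higher (Foxm1 and Ttk). Of all genes tested, 2.26% were lower and 6.49% higher, so the 2 higher members were no more than that share. Anln, a scaffold of the contractile ring, had 58.1, 73.8 and 38.9 CPM in ML KO against 17.1, 9.26 and 9.92 CPM in ML WT, and 23.8, 50.1 and 52.7 CPM in basal KO against 1.51, 1.11 and 1.41 CPM in basal WT (difference -2.77 ± 0.50, edgeR adjusted p = 0.00183). KO levels overlapped between the populations, and the WT level was higher in ML. Foxm1, the transcription factor of late cell cycle genes, had 27.1, 27 and 17.4 CPM in ML KO against 4.12, 1.42 and 2.22 CPM in ML WT, and 21.1, 36.2 and 27 CPM in basal KO against 15.7, 10.2 and 7.06 CPM in basal WT (difference 1.89, edgeR adjusted p = 0.0101, and 0.119 without the mouse block). Ttk, a spindle checkpoint kinase, had 7.84, 9.75 and 8.11 CPM in ML KO against 0.317, 0 and 0.342 CPM in ML WT, and 5.3, 10.5 and 11.9 CPM in basal KO against 1.35, 1.04 and 1.88 CPM in basal WT. Its difference was 2.93 (edgeR adjusted p = 0.0144), with adjusted p-values of 0.0748 without ML WT replicate 3 and 0.11 without the mouse block. The count of 7 was between 1 and 9 over the other settings: it was 1 with limma voom and 2 without basal WT replicate 1, ML WT replicate 2, ML KO replicate 3 or basal KO replicates 2 or 3. It was 3 without ML WT replicate 1 and 4 without ML KO replicate 2 or basal WT replicates 2 or 3. Pcna and Cdt1 were higher among 30 DNA replication genes (6.67%), near the 6.49% of all genes tested. That count was 5 without ML WT replicate 3 and 6 without basal WT replicate 3. Fanca was lower among 29 homologous recombination and Fanconi genes (3.45%, against 2.26% of all genes tested). Of 29 p53 target genes Sesn2, Phlda3, Dram1 and Tnfrsf10b were higher and Gadd45a lower (17.2% called, against 8.75%). The p53 target count of 4 higher was 2 without basal KO replicate 2, ML KO replicate 3, basal WT replicates 2 or 3 or ML WT replicates 2 or 3, and Gadd45a missed the threshold without ML KO replicate 1. Fanca and Dram1 each missed it in 12 of 19 other settings.

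Besides Tnfsf11, the 10 most negative differences belonged to Napsa, H4c12, Galnt9, Slc16a5, Reg3g, Naip6, H1f3, Slco1a6 and Pik3c2g. Each was at most 1.03 CPM in every basal library, so their differences, from -7.20 for Napsa to -5.00 for Pik3c2g, rest on few basal reads. H1f3, a linker histone, had 2.68, 15.8 and 18.6 CPM in ML KO against 38.2, 62.3 and 43.7 CPM in ML WT, and 0.162, 0.975 and 1.03 CPM in basal KO against 0.052, 0.108 and 0 CPM in basal WT (difference -5.47 ± 0.68, edgeR adjusted p = 7.35e-05). Slco1a6 and Napsa missed the threshold in 14 and 9 of 19 other settings. Reg3g and Galnt9 missed it without basal WT replicate 1 or 2, and Galnt9 also without ML WT replicate 2. Naip6 and H4c12 have near copies elsewhere in the genome, and their reads are uncertain in the same way.

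Housekeeping lists held no gene that passed the test. Among 63 oxidative phosphorylation genes, 31 proteasome subunits, 25 cholesterol and fatty acid synthesis genes and 76 cytosolic ribosomal proteins, edgeR called 0 in either direction, with medians of -0.21, 0.07, -0.01 and 0.37. At an unadjusted p under 0.05 edgeR had 4, 0, 8 and 11 of them in that order, DESeq2 called 2, 0, 1 and 3, and limma voom called 0 in each list. With 1 library left out, edgeR called up to 4 cholesterol and fatty acid genes (without ML WT replicate 1) and up to 5 ribosomal proteins (without basal WT replicate 3) higher. A miss of the threshold does not show that effects were equal. Of 25 ATF4 and unfolded protein response genes 3 were higher (Slc7a5, Slc7a11 and Psat1), or 12% against 6.49% of all genes tested. Of 21 milk and secretory genes 2 were (Muc15 and Xdh), or 9.52%. Of 17 motile cilia genes Ccno was higher and Dnaic1 lower (11.8% called, against 8.75%). The milk gene count was 0 without basal KO replicate 1, ML KO replicates 1 or 3 or ML WT replicate 2, 1 without basal WT replicates 1 or 2, ML WT replicate 1 or basal KO replicate 3, and 4 without basal WT replicate 3. Ccno missed the threshold without ML WT replicate 2 and Dnaic1 without basal KO replicate 3. Among markers of other cell types, Flt1 was higher of 14 endothelial and pericyte genes (7.14%, near the 6.49% of all genes tested). In that list 2 passed without ML KO replicate 2 or ML WT replicate 2. Among 6 adipocyte and 7 erythrocyte and muscle genes edgeR called 0 (1 and 0 at an unadjusted p under 0.05). DESeq2 and limma voom called 0 of these as well. Without ML KO replicate 2, 1 adipocyte gene passed.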

How the data were processed

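Bulk RNA was sequenced from sorted mammary cells. The values are whole-number counts of reads per gene that the authors made with featureCounts on mm10 and deposited, per the submitters' processing notes. For the aligner, annotation, strand setting and tool versions, the sources used here give nothing, so antisense and overlapping genes cannot be separated. RNA came from the miRNeasy micro kit and libraries from TruSeq RNA v2, per the labels' protocols. Of 27179 gene IDs, 25275 matched a symbol in RefSeq (GRCm38.p6), and 1904 (1.6% of counts) did not. The single-library files equalled the series table for 18 of 18 libraries.

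edgeR 4.0.16 in R 4.3.3 was run on all 18 libraries (filterByExpr by group, TMM scaling, 16466 genes tested). The quasi-likelihood fit held 6 mice as blocks, population and population by KO. KO against WT within a population used 1 mean per group and no block, since each mouse has 1 genotype, so its values do not subtract exactly to ML minus basal. P-values were adjusted by Benjamini-Hochberg (threshold 0.05). SE is the log2 value divided by the root of F. CPM use TMM-scaled library sizes. Libraries of the same mouse were identified by the mouse number in the labels. Their deviations from group means correlated at 0.137 to 0.427 in 6 of 6 ML and basal pairs, against -0.26 to 0.0652 for different mice, and the block was kept. The biological coefficient of variation was 26.4% with the block and 33.3% without. Replicates differed beyond sampling noise (chi-square per degree of freedom 22.55 to 204.3).

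The comparison, the 33 gene lists (795 genes) and the tests were chosen with earlier results of these data known. Genes were named by rule: among called genes with a mean of at least 5 CPM in a group, without predicted, olfactory, vomeronasal and antigen receptor genes or IDs with no symbol, the 10 largest positive and 10 largest negative differences and the 10 of lowest p, the 4 members of each list with the lowest p where that many passed, and Trp53 and Brca2. Where a group held 0 reads, folds are against 3 reads over the group. With 1 to 3 reads, the ratio has a 95% exact interval that covers counting error only. Alternatives were no block, the 12 libraries alone, RLE scaling, no filter, DESeq2 1.42.0, limma 3.58.1 voom, thinning to 1 depth and leaving out each library.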

Additional observations from a re-analysis of the deposited data

Results flagged for a closer look

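The test of ML minus basal differed for 1069 genes upward and 372 downward, and it is this difference between the KO effects of the populations that brought the following genes here. The values are log2 differences of ML minus basal from edgeR, and those of genes with 0 reads in a group depend on the prior count and are not bounds. Basal keratin, matrix and contractile genes had 6.19 (Krt5), 7.10 (Krt14), 6.95 (Col17a1), 7.04 (Col14a1), 7.73 (Col12a1), 4.77 (Col9a3), 5.64 (Mylk), 2.98 (Myh11) and 2.62 (Acta2). Wnt, Notch and ErbB genes had 7.37 (Wif1), 6.97 (Nkd2), 6.62 (Lgr5), 4.87 (Dll1), 4.89 (Egfr) and 5.88 (Nrg1). Cell cycle, growth factor and inflammatory genes had 6.16 (Ccnd2), 5.39 (Igfbp3), 5.55 (Cdk6), 3.05 (Icam1), 3.23 (Cxcl1), 3.72 (Egln3), 1.89 (Foxm1) and 2.93 (Ttk). Progenitor and junction genes had 4.85 (Sox10), 4.93 (Slc5a8) and 1.83 (Cldn1). Genes near absent from ML WT had 11.99 (Ankrd1), 10.59 (Slc4a4), 9.998 (Dsc3), 9.41 (Prrx1), 9.04 (Cntn2), 6.47 (Pla2g7) and 6.39 (Ifit3).

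Downward, luminal genes had -3.48 (Ly6d), -3.93 (Prlr), -2.81 (Cited1), -2.73 (Foxa1), -2.22 (Cldn7) and -7.72 (Tnfsf11). The ligands had -4.01 (Areg) and -2.51 (Epgn), and the collagen gene Col8a1 had -4.85. Interferon-stimulated genes had -3.79 (Iigp1), -3.12 (Usp18), -2.08 (Ifih1), -2.67 (Trim30a) and -1.77 (Oas1a). Anln had -2.77 and H1f3 had -5.47.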

How the results depend on the processing

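With no replicate block, which drops the mouse pairing, the test of ML minus basal called 826 genes higher and 178 lower, against 1069 and 372 with it. DESeq2 called 607 lower in ML minus basal, 676 lower in ML KO, 637 higher in basal KO and 57 lower in basal KO. The basal lower count of 11 was 26 in the 12 libraries alone and 38 with limma voom. Leaving out 1 library at a time gave 826 to 1043 genes higher and 228 to 341 lower in ML minus basal. The same gave 1496 to 1902 higher and 92 to 395 lower in ML KO, and 219 to 407 higher and 2 to 11 lower in basal KO. Where 1 library was left out, its mouse kept 1 library of the pair. The ML minus basal value of Trp53, which did not pass, ran from -0.12 to 0.56 with 1 library left out. It was -0.12 without basal KO replicate 3, -0.05 without ML KO replicate 3 and -0.11 without ML WT replicate 3. The cause was not tested in any of these. Of 102 named genes that passed, 72 did so in all 19 settings and 30 missed the threshold in at least 1, and no other named gene changed sign. Without the block, the ATF4 list had 0 higher members, the p53 target list 1 and the luminal junction list 3 lower. Thinning all libraries to 1 depth left 900 higher and 268 lower of 14334 genes that could then be tested.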

Other observations

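The LP libraries of the same mice give a further reading of the 1069 genes with a higher KO effect in ML. For 151 of them the ML KO mean lay above the basal KO mean although the ML WT mean lay below the basal WT mean. Of these 151, 127 (84.1%) had an LP KO mean above the ML KO mean, and 111 (73.5%) had an LP WT mean above the basal WT mean. Over all 1069, the ML KO mean was above the LP KO mean for 417 (39%), below both the basal KO and LP KO means for 510 (47.7%) and above both for 24 (2.25%).

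Histone genes were picked as a set after their values were seen and are given as a description only. Of 47 tested, 16 were lower in ML minus basal (34%, against 2.26% of all genes tested) and 0 higher, with a median of -2.85. Many members had few basal reads, so their differences are uncertain. H4c12 averaged 0.611 CPM in basal KO and 0.012 CPM in basal WT, and H1f5 0.772 and 0.012 CPM. How well the library kit captured histone transcripts was not tested. Within ML KO 4 were lower (8.51%, against 2.62% of all genes tested), and within basal KO 6 were higher (12.8%, against 2.47%). H3c3 was higher in ML KO (4.54, edgeR adjusted p = 0.0148), at means of 0.697 CPM in ML KO and 0.0143 CPM in ML WT. The 2 members that follow were among the better expressed in basal cells. H1f0, the replacement linker histone, averaged 210 CPM in ML KO against 551 CPM in ML WT, and 50.8 CPM in basal KO against 28.4 CPM in basal WT. H2bc4 averaged 57.5 CPM in ML KO against 108 CPM in ML WT, and 25.3 CPM in basal KO against 4.68 CPM in basal WT.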
